A study of Mus musculus with 2 samples.

Results

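Granzymes, perforin and the death ligands are the molecules with which lymphocytes kill other cells. The set described here holds 8 genes, taken from the gene list by their symbols: the granzymes Gzma, Gzmb, Gzmk and Gzmm, the pore protein gene Prf1, the granule membrane gene Nkg7, and the ligands Fasl and Tnfsf10. They are 8 of the 31053 genes in the deposited gene list, and each has 1 row there. The series holds 2 samples of liver immune cells from mice 8 weeks old, both of the strain given as RedMUC298trTg. The first is labelled Rcrin KO and is described as a conditional knockout in the liver; the second is labelled WT and is described as carrying the floxed Rcrin gene. The labels name neither the Cre driver nor the number of animals per sample, and they do not say how the cells were sorted after collagenase digestion. All 3 files of the Rcrin KO sample were byte for byte the same as those of the WT sample, with 11192 shared barcodes. The genotypes were therefore not compared, and the values below describe 1 matrix of unknown genotype. No gene of the list is named Rcrin, so the deletion could not be checked.

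Cytotoxic lymphocytes store granzymes and perforin in secretory granules and release them where they touch a target cell. Perforin opens the membrane of the target, and granzymes, which are serine proteases, enter it and cleave proteins that lead to apoptosis. Fas ligand and TRAIL, encoded by Fasl and Tnfsf10, act from the cell surface on death receptors of the target. Mouse liver is rich in natural killer (NK) cells, type 1 innate lymphoid cells (ILC1) and unconventional T cells, and TRAIL is a known feature of liver ILC1.

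Of the 11192 barcodes, 10366 were kept, each with 500 or more unique molecular identifiers (UMI, 1 per captured transcript), 200 or more genes and no more than 10% of UMI from mitochondrial genes. These cells held 64321006 UMI, with a median of 4343.5 UMI and 1726.5 genes per cell. They were assigned to gates by the presence of marker transcripts, none of which is a member of the set. Gates are called NK-like, ILC1-like and so on because they rest on RNA alone. There were 428 NK-like cells, 158 ILC1-like cells, 566 effector-memory and 400 naive CD8 T-like cells (Cd8b1 found, Cd4 not found). A further 134 cells were unconventional CD8 T-like, with Cd8a but no Cd8b1, and 303 were NKT-like. The unconventional CD8 gate also needed at least 2 of the markers Ikzf2, Cd160, Fcer1g and Tyrobp, so it does not hold all T cells with Cd8a alone. Eomes, an NK marker, was found in 69.6% of NK-like and 2.53% of ILC1-like cells, and Cxcr6, an ILC1 marker, in 0.234% of NK-like and 67.7% of ILC1-like cells. Cd3e and Trac were at 0 in both gates by rule, while Cd3g, a T cell marker, was found in 9.11% of NK-like and 58.2% of ILC1-like cells. The NKT marker Trav11 was found in only 7.92% of NKT-like cells, and Foxp3 in 30.7% of the 75 regulatory CD4 T-like cells. Trac, the constant gene of the T cell receptor alpha chain, was found in 47.4% of the 76 gamma-delta T-like cells. The rule of that gate did not exclude it, so all of these names are loose. T-like and NK or ILC1-like cells that met no subset rule, mixed cells, cells in no gate and gates under 30 cells are left out of the orders of levels, which cover 21 gates. Median depth was 3936.5 UMI in NK-like, 4516 in ILC1-like, 4263 in effector-memory CD8, 6511.5 in naive CD8 and 3239 in B-like cells.

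Levels are given in CPM, the UMI of a gene per 1000000 UMI of a gate, with a 95% exact Poisson interval, and shares of cells with an exact Clopper-Pearson interval. With 1 matrix there is no replicate and no test. The intervals cover counting error only, treat UMI as independent and leave out the variation between cells and animals. CPM is not corrected for gene length, so a gene is compared between gates and not with another gene. The 2917 B-like cells, which should lack these genes, serve as the background of free RNA.

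In the GENCODE M21 annotation of GRCm38 the granzyme genes lie on 3 chromosomes. Gzma spans chr13:113093825-113100981 and Gzmk spans chr13:113171608-113225908, both on the minus strand. Gzmb spans chr14:56258838-56262260 on the minus strand, and Gzmm spans chr10:79689020-79695261 on the plus strand. Prf1 lies on the same chromosome as Gzmm, at chr10:61297833-61304680 on the plus strand, and Nkg7 at chr7:43437073-43438249 on the plus strand. Fasl spans chr1:161780689-161788495 on the minus strand and Tnfsf10 spans chr3:27317028-27342427 on the plus strand. All are protein-coding genes.

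**Figure D1:**
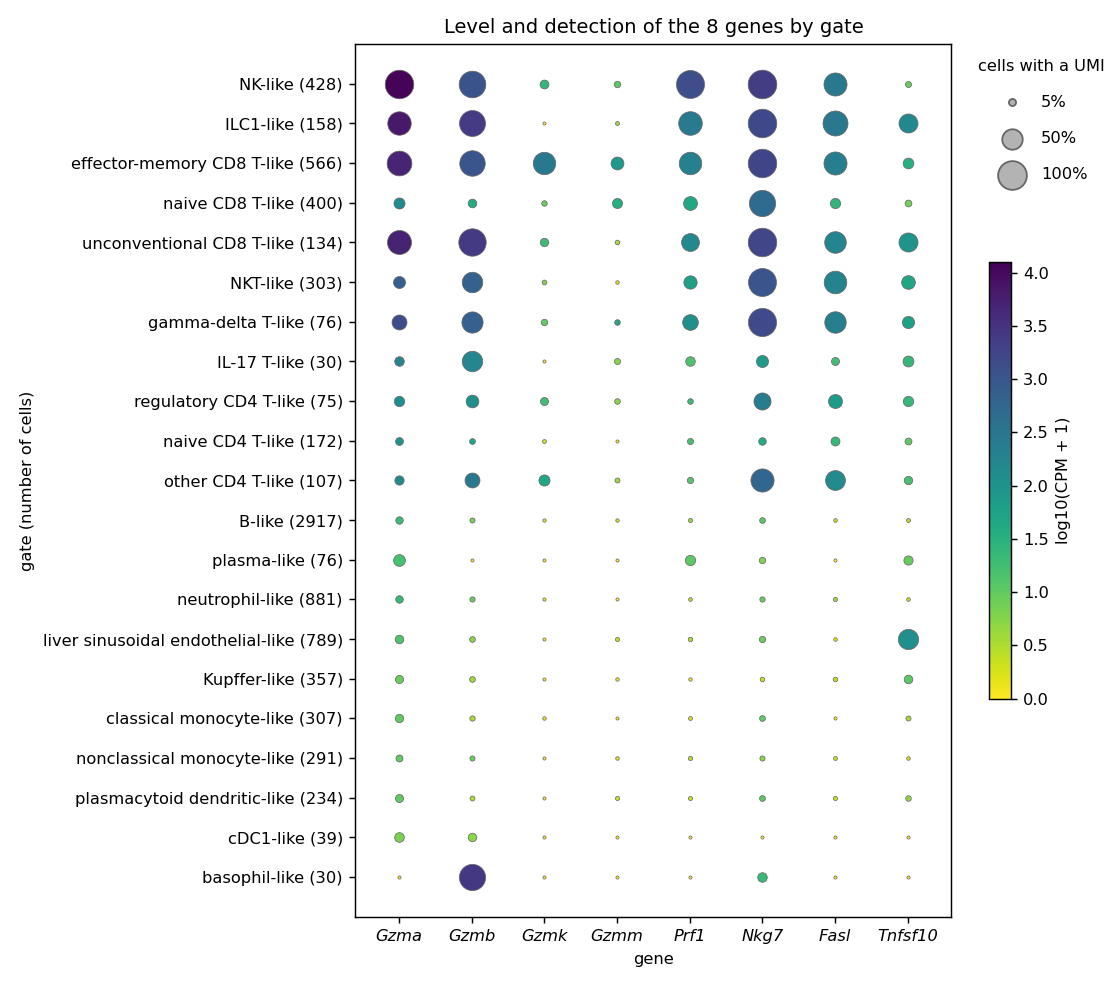
Each dot is 1 gene (columns) in 1 gate of at least 30 cells (rows, number of cells in brackets); colour gives log10(CPM + 1) and area the share of cells with a UMI. The granzymes, Prf1, Nkg7 and Fasl are dark in lymphoid gates, with Gzmb also dark in basophil-like cells, and Tnfsf10 is high in the endothelial-like gate of the sinusoids.

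Gzma, which encodes a tryptase-like granzyme, was highest in NK-like cells, at 11534 CPM (95% interval 11382 to 11687). ILC1-like cells followed at 6944 CPM, then unconventional CD8 T-like cells at 5186 CPM and effector-memory CD8 T-like cells at 4964 CPM. The first 4 gates stand in this order beyond their counting intervals, although the third exceeded the fourth by a ratio of only 1.04 (1.01 to 1.08). Gamma-delta T-like cells had 1433 CPM, NKT-like cells 762 CPM and naive CD8 T-like cells 135 CPM. In the gates of the other liver cells with at least 30 cells Gzma lay between 0 CPM (basophil-like) and 21.5 CPM (neutrophil-like), with 20.1 CPM in B-like cells. Gzma was found in 98.6% of NK-like cells (97.0 to 99.5%) and in 66.5% of ILC1-like cells (58.5 to 73.8%), against 5.62% of B-like cells. The 428 NK-like cells, 4.13% of the kept cells, held 32.1% of all Gzma UMI.

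Prf1, the gene of the pore-forming protein, followed Gzma most closely over the gates, and in it the NK-like cells stood further apart. It reached 1349 CPM (1297 to 1402) in NK-like cells, against 267 CPM in ILC1-like, 215 CPM in effector-memory CD8 T-like and 147 CPM in unconventional CD8 T-like cells. Gamma-delta T-like cells had 114 CPM, a level whose ratio to the unconventional CD8 gate was within counting error. NKT-like cells had 61.7 CPM, naive CD8 T-like cells 44.1 CPM and B-like cells 3.08 CPM. Prf1 was found in 95.1% of NK-like cells, 67.1% of ILC1-like cells and 0.926% of B-like cells.

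The promoters of Gzma and Prf1 are shown because these genes had the most similar pattern over the gates. The sequences are RefSeq's for GRCm38.p6, from 250 bases before to 50 bases after the start of the gene, written on the gene's strand, so that the last 50 bases are transcribed. RefSeq and GENCODE do not place the start at the same base for every gene, Gzmb among them. For Gzmk they are far apart: the RefSeq window, chr13:113180916-113181215, lies inside the GENCODE span, which starts at base 113225908 on the minus strand. Capitals mark letters of 5 motifs searched on both strands: T-box (GGTGTGA), RUNX (TGTGGT), AP-1 (TGAGTCA or TGACTCA), the interferon response element ISRE (GAAA, any 2 bases and GAAA) and a CRE core (TGACGT, part of the cAMP response element). All 300-base promoters in the RefSeq table numbered 32851, of which 3.98% held the T-box, 16.8% the RUNX, 5.20% the AP-1, 3.44% the ISRE and 7.51% the CRE core letters. The motifs were chosen with the members in view, and a match is a description and not a binding site. The Gzma promoter lies at chr13:113100932-113101231 on the minus strand and the Prf1 promoter at chr10:61297586-61297885 on the plus strand.
Gzma: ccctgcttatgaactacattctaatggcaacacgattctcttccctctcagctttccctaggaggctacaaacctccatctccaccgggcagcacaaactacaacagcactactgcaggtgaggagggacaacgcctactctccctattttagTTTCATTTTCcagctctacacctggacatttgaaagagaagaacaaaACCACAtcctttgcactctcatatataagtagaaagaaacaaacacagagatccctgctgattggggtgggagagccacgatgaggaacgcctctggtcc
Prf1: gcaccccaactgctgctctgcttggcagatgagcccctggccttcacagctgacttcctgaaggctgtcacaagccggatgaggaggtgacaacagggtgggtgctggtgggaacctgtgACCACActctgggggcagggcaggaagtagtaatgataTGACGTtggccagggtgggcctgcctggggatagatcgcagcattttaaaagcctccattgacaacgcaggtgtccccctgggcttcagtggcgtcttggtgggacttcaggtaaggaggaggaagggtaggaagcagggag
Both hold the RUNX letters, 50 bases before the start in Gzma and 130 bases before it in Prf1. Gzma also holds the ISRE letters, and Prf1 the CRE core letters 92 bases before its start. Across the 8 genes, 9 promoters were listed, with 2 for Gzmm; 5 of the 9 held the RUNX letters and 3 the T-box letters.

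Gzmb, the granzyme that cleaves after aspartate and activates caspases, had a different order. Basophil-like cells had the highest level, at 2765 CPM (2503 to 3048), from 406 UMI in 30 cells. Unconventional CD8 T-like cells had 2493 CPM and ILC1-like cells 2402 CPM, and neither neighbouring pair in this order differed beyond counting error (ratios 1.11, 0.995 to 1.23, and 1.04, 0.974 to 1.11). NK-like cells had 1115 CPM and effector-memory CD8 T-like cells 1092 CPM, again without a difference beyond counting error (ratio 1.02, 0.967 to 1.08). Gamma-delta T-like cells had 689 CPM, NKT-like cells 676 CPM and naive CD8 T-like cells 38.6 CPM. B-like cells had 5.87 CPM.

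In basophil-like cells Gzmb stood without its partners. It was found in 83.3% of them (65.3 to 94.4%), against 2.02% of B-like cells, and the ratio of CPM was 471 (359 to 627). Gzma, Gzmk, Gzmm, Prf1, Fasl and Tnfsf10 were each found in 0 of the 30 cells, which allows up to 20.4 CPM at 3 counts, and Nkg7 was at 20.4 CPM from 3 UMI. Set against ILC1-like cells, against which Gzmb had a ratio of 1.15 (1.03 to 1.28), Gzma was at least 340-fold lower and Prf1 at least 13.1-fold lower in basophil-like cells. Of the markers that define the gate, Cyp11a1 was found in 100% and Mcpt8, a basophil protease gene, in 86.7% of its cells. The T and NK markers Cd3e and Eomes were at 0 there, and Trac was found in 16.7%. Gzmb UMI were uneven, and the 10 cells with most UMI held 74.6% of them.

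The Gzmb promoter, at chr14:56262285-56262584 on the minus strand, is shown because this granzyme, of the 4 in the set, was high both in cytotoxic lymphocytes and in basophil-like cells.
Gzmb: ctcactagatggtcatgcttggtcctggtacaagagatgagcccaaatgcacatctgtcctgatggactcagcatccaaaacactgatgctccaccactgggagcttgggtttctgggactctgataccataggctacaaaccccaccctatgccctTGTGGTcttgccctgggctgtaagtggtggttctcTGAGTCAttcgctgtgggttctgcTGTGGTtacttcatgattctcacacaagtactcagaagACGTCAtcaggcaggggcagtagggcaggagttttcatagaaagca
It holds the RUNX letters at 93 and at 34 bases before the start, the AP-1 letters at 58 bases before it and the CRE core letters shortly after it. It was the only member promoter with the AP-1 letters.

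Gzmk, another tryptase-like granzyme, was highest in conventional CD8 T-like cells. It had 271 CPM (253 to 290) in effector-memory CD8 T-like cells and was found in 60.4% of them (56.3 to 64.5%), against 0.171% of B-like cells. This gate held 70.2% of all Gzmk UMI. The next gate, CD4 T-like cells that were neither naive nor regulatory, had 44.7 CPM, and the ratio of the effector-memory CD8 gate over it was 6.07 (4.14 to 9.26). NK-like cells had 22.5 CPM and unconventional CD8 T-like cells 18.5 CPM, which did not differ beyond counting error. Naive CD8 T-like cells had 7.58 CPM and NKT-like cells 4.83 CPM. No Gzmk UMI was found in 158 ILC1-like cells, which allows up to 3.91 CPM.

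Gzmk and Gzma lie close together on chromosome 13, on the same strand, and yet differed in their gates; the promoter of Gzmk, at chr13:113180916-113181215 on the minus strand, is shown for that contrast with Gzma.
Gzmk: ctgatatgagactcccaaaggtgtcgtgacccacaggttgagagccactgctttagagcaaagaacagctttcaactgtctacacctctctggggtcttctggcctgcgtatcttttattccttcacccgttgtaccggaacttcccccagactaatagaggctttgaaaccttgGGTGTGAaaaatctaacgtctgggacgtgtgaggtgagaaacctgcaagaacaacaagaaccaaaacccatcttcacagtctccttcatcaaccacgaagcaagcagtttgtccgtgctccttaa
It holds the T-box letters 75 bases before the RefSeq start, which is not the GENCODE start, and none of the other 4 motifs. The Gzma window holds no T-box letters. Eomes, which encodes a T-box factor, had 363 CPM in NK-like, 180 CPM in effector-memory CD8 T-like and 6.51 CPM in ILC1-like cells. Tbx21, which encodes T-bet, another T-box factor, had 115 CPM in NK-like, 71.4 CPM in effector-memory CD8 T-like and 135 CPM in ILC1-like cells. Gzmk had 22.5, 271 and 0 CPM in the same order of gates. A link between these factors and the level of Gzmk was not tested.

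Gzmm, which encodes a granzyme that cleaves after methionine or leucine, was the scarcest member, with 521 UMI in 2.64% of the kept cells. Effector-memory CD8 T-like cells had 78.4 CPM (68.9 to 88.9) and held 47.0% of its UMI. Naive CD8 T-like cells had 32.9 CPM and contained the gene in 11.2% of cells, against 0.240% of B-like cells. Gamma-delta T-like cells had 44.4 CPM, but their 16 UMI came from 2 cells. NK-like cells had 9.94 CPM from 19 UMI, ILC1-like cells 2.60 CPM from 2 UMI and naive CD4 T-like cells none, which allows up to 3.46 CPM. Conventional CD8 T-like cells, naive or not, thus had the highest levels among gates with Gzmm in more than 2 cells.

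Nkg7, whose product sits in the granule membrane and is needed for granule release, was the most widely found member, in 29.3% of the kept cells. NK-like cells had 2362 CPM (2293 to 2432), effector-memory CD8 T-like cells 1844 CPM and unconventional CD8 T-like cells 1759 CPM. ILC1-like cells had 1578 CPM, gamma-delta T-like cells 1497 CPM and NKT-like cells 1077 CPM, and in each of these 6 gates Nkg7 was found in at least 94.7% of cells. It was also present where Gzma, Gzmb and Gzmk were low: naive CD8 T-like cells had 480 CPM and contained it in 83.2% of cells (79.2 to 86.8%), against 2.81% of B-like cells. The ratio of naive CD8 over naive CD4 T-like cells was 11.6 (8.32 to 16.6) for Nkg7, with 480 and 41.5 CPM. For Gzma the same ratio was 1.33 (1.05 to 1.70), and for Gzmb 0.882 (0.604 to 1.31).

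The Nkg7 promoter, at chr7:43436888-43437187 on the plus strand, is shown as that of the member found in most cells.
Nkg7: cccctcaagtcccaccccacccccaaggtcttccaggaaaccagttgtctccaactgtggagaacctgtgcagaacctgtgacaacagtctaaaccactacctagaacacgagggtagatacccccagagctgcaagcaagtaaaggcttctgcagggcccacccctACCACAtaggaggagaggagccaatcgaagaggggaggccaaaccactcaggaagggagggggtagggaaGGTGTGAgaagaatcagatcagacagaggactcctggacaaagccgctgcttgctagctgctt
It holds the T-box letters 13 bases before the start and the RUNX letters 83 bases before it. No promoter of another member combined these motifs in 1 window.

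Fasl, the gene of Fas ligand, differed by less than 2-fold over the 6 gates with the highest levels. ILC1-like cells had 290 CPM (253 to 331) and NK-like cells 286 CPM (262 to 311), which did not differ beyond counting error. Effector-memory CD8 T-like cells had 233 CPM, gamma-delta T-like cells 219 CPM, NKT-like cells 181 CPM and unconventional CD8 T-like cells 171 CPM. CD4 T-like cells that were neither naive nor regulatory had 141 CPM and regulatory CD4 T-like cells 71.1 CPM, against 21.9 CPM in naive CD4 T-like cells. B-like cells had 1.35 CPM. In NKT-like cells Fasl was found in 61.4% of cells (55.6 to 66.9%), whereas Gzma was found in 16.5% of them (12.5 to 21.2%).

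Tnfsf10, the gene of TRAIL, had the least lymphoid pattern. ILC1-like cells had 154 CPM (127 to 184) and contained it in 43.0% of cells (35.2 to 51.1%). The endothelial-like gate of the liver sinusoids, its capillaries, had 116 CPM (108 to 126), and the ratio of ILC1-like over endothelial-like cells was 1.32 (1.08 to 1.61). The 789 endothelial-like cells held 35.1% of all Tnfsf10 UMI, against 6.16% in ILC1-like cells. Unconventional CD8 T-like cells had 98.6 CPM, gamma-delta T-like cells 55.5 CPM, NKT-like cells 46.7 CPM and effector-memory CD8 T-like cells 31.1 CPM. NK-like cells had only 7.85 CPM from 15 UMI, near the 9.22 CPM of naive CD4 T-like and the 6.50 CPM of naive CD8 T-like cells.

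The endothelial level of Tnfsf10 was not shared by its neighbours or by the other members. It was 55.0 times (36.0 to 88.3) that of B-like cells, with 116 and 2.12 CPM, and 12.0 times (8.46 to 17.6) that of Kupffer-like cells, macrophages of the same vessels, which had 9.70 CPM. The gene was found in 49.2% of endothelial-like cells (45.6 to 52.7%), against 0.686% of B-like cells, and after thinning every cell to 1000 UMI in 11.7%, against 0.172%. For Gzma, Gzmb, Prf1, Nkg7 and Fasl the endothelial level was 0.385 to 0.778 times that of B-like cells, at or under that background, and Gzmk was not found. Gzmm had 7 UMI in endothelial-like and 7 UMI in B-like cells. The cells were endothelial by their markers, with Stab2 found in 93.4% and Ptprb in 99.9% of them.

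Set side by side, NK-like and ILC1-like cells divided the killing genes. Prf1 had an NK-like over ILC1-like ratio of 5.05 (4.38 to 5.86). Levels in NK-like cells were also higher for Gzma, at a ratio of 1.66 (1.61 to 1.71), and for Nkg7, at 1.50 (1.40 to 1.60). Gzmk was at least 5.76-fold higher, since ILC1-like cells had no UMI against 43 in NK-like cells; the bound sets ILC1-like cells at 3 counts. In the other direction, the NK-like over ILC1-like ratio was 0.464 (0.436 to 0.494) for Gzmb and 0.0511 (0.0277 to 0.0877) for Tnfsf10. Fasl had a ratio of 0.984 (0.841 to 1.16), and Gzmm, with 19 and 2 UMI, one of 3.82 (0.921 to 33.8) that counting error does not separate from 1. By a 2-fold rule among genes with at least 20 CPM in either gate, 2 of the 7 members tested were higher in NK-like cells and 2 lower, against 4.97% higher and 6.69% lower among all 6161 genes tested. The median log2 ratio, with 1 CPM added, was 0.58 over these 7 members, also with Gzmk at its bound, and -0.04 over all genes tested. Gzmk passed the 20 CPM limit only through NK-like cells and Tnfsf10 only through ILC1-like cells. The T cell transcript Cd3g was in more ILC1-like than NK-like cells, as given above, and its part in the result was not tested.

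Conventional CD8 T-like cells differed in every member. With naive cells as the base, effector-memory cells were higher by a ratio of 36.8 (33.2 to 40.8) for Gzma, 35.8 (23.2 to 58.1) for Gzmk and 28.3 (23.3 to 34.6) for Gzmb. Fasl was 9.34 times higher (7.29 to 12.1), Prf1 4.88 times (4.02 to 5.97), Tnfsf10 4.78 times (2.87 to 8.40), Nkg7 3.84 times (3.62 to 4.08) and Gzmm 2.39 times (1.87 to 3.07). All 8 members passed the 2-fold rule, against 12.8% of the 5915 genes tested, and 0 were lower, against 3.23%. With a CPM total without haemoglobin, hepatocyte, mitochondrial and ribosomal protein genes 7 passed, and Gzmm had a ratio of 1.87. The median log2 ratio was 2.72 over the members and 0.28 over all genes tested. The gates were defined by the effector genes Ccl5, Cxcr3, Cxcr6, Id2 and S100a6 and naive marker genes that include Lef1 and Ccr7, so genes that follow these had to differ, and Gzmk and Tnfsf10 passed the 20 CPM limit only through the effector-memory gate. In naive cells 10 of the 400 held 81.6% of the 374 Gzma UMI, 77.6% of the Gzmb UMI and all Gzmk UMI, but 12.1% of the Nkg7 UMI. With cells grouped by Leiden clusters in place of gates the ratio was 202 for Gzma, 51.4 for Gzmk, 22.9 for Gzmb and 2.67 for Gzmm. It was 8.37 for Fasl, 3.39 for Prf1, 2.96 for Tnfsf10 and 2.92 for Nkg7, each lower than by gates.

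**Figure D2:**
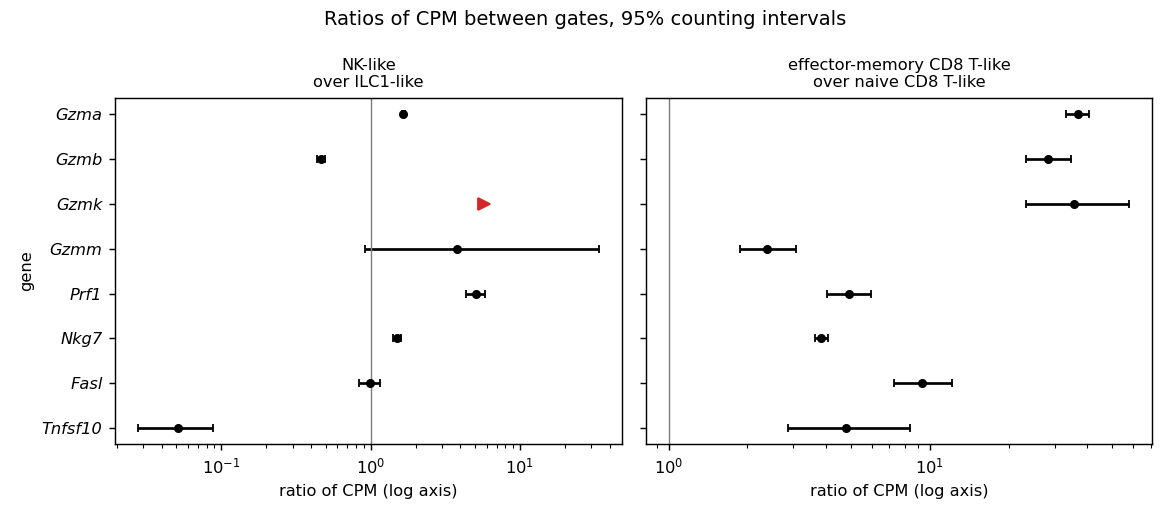
Ratio of CPM (log axis) of each gene with its 95% counting interval, for NK-like over ILC1-like cells (left) and effector-memory over naive CD8 T-like cells (right); the arrowhead is a lower bound, as ILC1-like cells had no Gzmk UMI. On the left the genes fall on both sides of 1, from 0.0511 for Tnfsf10 to 5.05 for Prf1, and on the right all lie above it.

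Set against all other kept cells, NK-like cells were at least 2-fold higher in 5 of the 7 members tested (Gzma, Gzmb, Prf1, Nkg7 and Fasl), against 7.23% of 6873 genes, and lower in 1 (Tnfsf10), against 18%. Tnfsf10 passed the 20 CPM limit only through the other cells. NK-like cells also differed from effector-memory CD8 T-like cells gene by gene. Prf1 was 6.27 times higher in NK-like cells (5.76 to 6.83) and Gzma 2.32 times (2.28 to 2.37). Gzmk had an NK-like over effector-memory ratio of 0.0830 (0.0596 to 0.113), Gzmm one of 0.127 (0.0750 to 0.202) and Tnfsf10 one of 0.253 (0.136 to 0.438). Unconventional CD8 T-like cells had 2.28 times the Gzmb level of effector-memory CD8 T-like cells (2.16 to 2.41) and 3.17 times the Tnfsf10 level (2.33 to 4.31). Their Gzmk and Gzmm levels were 0.0681 (0.0380 to 0.113) and 0.0314 (0.00378 to 0.115) of it. The ratio to effector-memory CD8 T-like cells was 1.04 (1.01 to 1.08) for Gzma, 0.954 (0.900 to 1.01) for Nkg7, 0.736 (0.609 to 0.883) for Fasl and 0.681 (0.556 to 0.829) for Prf1. By Gzmb, Tnfsf10, Gzmk and Gzmm this gate lay nearer to ILC1-like cells, and by Gzma, Nkg7, Fasl and Prf1 nearer to the conventional CD8 gate. For Gzmk and Gzmm this rests on low counts, with 15 and 2 UMI in this gate and 0 and 2 UMI in ILC1-like cells.

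The levels hide how the transcripts were spread over cells. After every cell was thinned to 1000 UMI, so that depth was equal, NK-like cells had a median of 12 Gzma UMI, and only 2.80% had none. ILC1-like cells were split: 39.2% had no Gzma UMI and 32.9% had at least 10. Of effector-memory CD8 T-like cells 32.7% had none and 23.1% had at least 10. In NKT-like cells 89.1% had none, and the 10 cells with most Gzma UMI held 73.2% of the gate's Gzma. For Gzmb, ILC1-like cells had a median of 2 UMI and an interquartile range of 0 to 4. Prf1 had at least 1 UMI in 67.8% of thinned NK-like cells, against 18.4% of ILC1-like, 23.5% of effector-memory CD8 T-like and 0.172% of B-like cells.

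**Figure D3:**
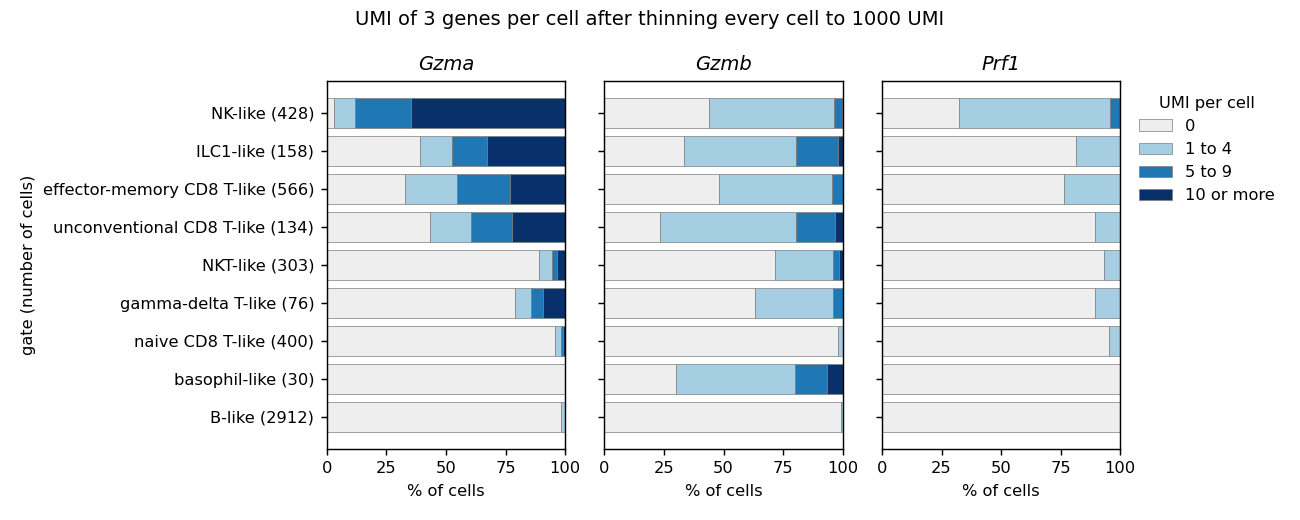
Share of cells (%) with 0, 1 to 4, 5 to 9 or 10 and more UMI of Gzma, Gzmb and Prf1 after thinning to 1000 UMI per cell, by gate (number of cells in brackets). For Gzma, 64.7% of NK-like cells have at least 10 UMI, ILC1-like cells divide between none and many, and basophil-like cells show Gzmb only.

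Gzma and Gzmb were found together in many ILC1-like and effector-memory CD8 T-like cells. In thinned ILC1-like cells, Gzmb was found in 83.3% of the 96 cells with Gzma (74.3 to 90.2%) and in 40.3% of the 62 cells without (28.1 to 53.6%). Prf1 did not follow, with 18.8% of cells with Gzma and 17.7% of those without. In effector-memory CD8 T-like cells, Gzmb was found in 61.9% of cells with Gzma and 30.8% of those without, and Prf1 in 29.7% of cells with Gzma and 10.8% of those without. Tnfsf10 was found in 3.15% of effector-memory cells with Gzma and 3.24% of those without. Among 6 of the members, without Gzmm and Nkg7, 40.4% of NK-like cells had 3 found and 12.1% had 4, and 89.2% of naive CD8 T-like cells had none.

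Within NK-like cells Gzma, Gzmb, Prf1, Nkg7 and Fasl were higher in the cells with markers of maturity. In mice, NK cells first carry CD27, then CD27 with CD11b (Itgam), and at last CD11b alone. Gzma had 5507 CPM in the 42 cells with Cd27 only, 8741 CPM in the 31 cells with both transcripts and 12929 CPM in the 239 cells with Itgam only. Prf1 had 588, 963 and 1612 CPM, and Gzmb 531, 671 and 1266 CPM in the same order. The ratio of Itgam-only over Cd27-only cells was 2.35 (2.22 to 2.48) for Gzma, 2.74 (2.32 to 3.26) for Prf1, 2.38 (2.0 to 2.86) for Gzmb and 2.17 (1.56 to 3.09) for Fasl. For Nkg7 it was 1.27 (1.15 to 1.40), and for Gzmm, with 5 and 6 UMI, 0.227 (0.0547 to 0.891). Counting error did not separate the ratio from 1 for Gzmk (1.01, 0.427 to 2.76) or Tnfsf10 (0.951, 0.181 to 9.39). The 116 cells with neither transcript had 12920 Gzma CPM, close to the Itgam-only cells. Median depth was 5086, 4567 and 3737 UMI in the first 3 groups, so the marker calls and the depth move together, and their part in the result was not tested.

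**Figure D4:**
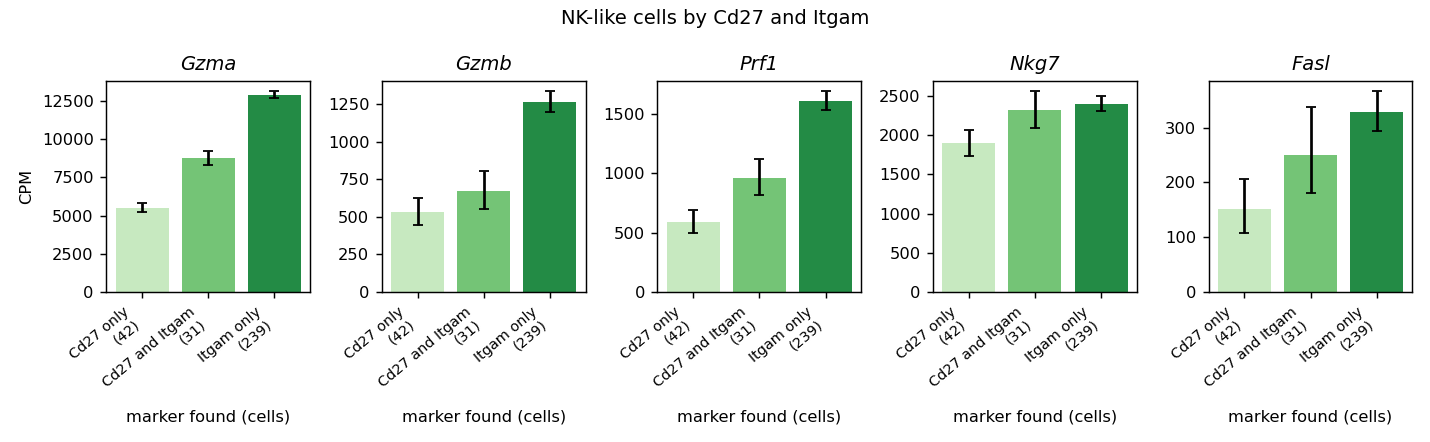
CPM of 5 genes in NK-like cells with Cd27 only, with Cd27 and Itgam, and with Itgam only (number of cells in brackets); error bars are 95% Poisson intervals of the summed UMI. Gzma has 5507, 8741 and 12929 CPM in this order, and Nkg7 changes least.

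Klrg1, an inhibitory receptor of late effector cells, went with higher Gzma levels in both lineages. NK-like cells with Klrg1 had 13644 Gzma CPM and those without 9390 CPM, a ratio of 1.45 (1.41 to 1.49), and for Prf1 the ratio was 1.46 (1.35 to 1.59). In effector-memory CD8 T-like cells, Gzma had 7283 CPM in the 236 cells with Klrg1 and 3087 CPM in the 330 without, a ratio of 2.36 (2.28 to 2.44), and Gzmk one of 1.70 (1.48 to 1.96). Tnfsf10 went the other way there, with a ratio of 0.501 (0.311 to 0.788). Median depth was 4264.5 UMI in CD8 cells with Klrg1 and 4258 UMI in those without. In NK-like cells it was 4118.5 UMI with Klrg1 and 3737.5 UMI without. Effector-memory cells were also split by Cxcr6, a receptor of cells that stay in the liver. Those with it had more Gzmb (ratio 1.53, 1.43 to 1.63) and Tnfsf10 (2.11, 1.39 to 3.21) and less Gzma (0.815, 0.787 to 0.843) than those without. Their median depth was 4873 UMI with Cxcr6 and 4054 UMI without, and the part of depth in these splits was not tested. In ILC1-like cells Gzma was higher with Cxcr6 than without (1.26, 1.19 to 1.34), and in unconventional CD8 T-like cells it had 5745 CPM with Cxcr6 and 4672 CPM without. Cycling effector-memory cells, with at least 3 of 5 cycling markers, had 84.4 Prf1 CPM against 263 CPM in the others, a ratio of 0.321 (0.247 to 0.411), and Fasl had a ratio of 0.418 (0.334 to 0.518), whereas Gzmb had one of 1.20 (1.12 to 1.29). The 60 cycling cells were deeper, with a median of 13885 UMI against 4059.

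Around the members, 47 other genes of granule storage, release, inhibition, death receptor signalling and lineage control were followed. Gzmc, a granzyme of the same gene cluster as Gzmb, had 1.05 CPM in NK-like cells from 2 UMI, but 293 CPM in ILC1-like cells from 225 UMI and 361 CPM in basophil-like cells. The other 5 granzymes listed, Gzmd, Gzme, Gzmf, Gzmg and Gzmn, were under 3 CPM in every lymphoid gate. The sources used here do not say how reads shared by related granzymes were counted. Serpinb9, among the serpins followed, encodes the inhibitor of granzyme B. It had 1112 CPM in NK-like, 975 CPM in ILC1-like, 563 CPM in effector-memory and 65.7 CPM in naive CD8 T-like cells. Serpinb6b had 576 CPM in NK-like, 565 CPM in ILC1-like, 301 CPM in effector-memory and 32.9 CPM in naive CD8 T-like cells. In basophil-like cells, which had the high Gzmb, Serpinb9 had 27.2 CPM and Serpinb6b 6.81 CPM. Serpinb1a, another of the serpins followed, had 204 CPM there, a level exceeded only by the 277 CPM of IL-17 T-like cells.

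By the 2-fold rule, 4 of the 32 pathway genes tested were higher and 5 lower in NK-like cells, with ILC1-like cells as the base, against 4.97% higher and 6.69% lower among all genes tested. Those higher were Stx11 (syntaxin 11, of granule fusion) at a ratio of 2.71 and the transcription factor genes Eomes, Zeb2 and Prdm1 at 55.7, 5.45 and 2.13. Eomes was also a gate marker. Stx11 and Eomes passed the 20 CPM limit only through NK-like cells, and Gzmc and Ctsh only through ILC1-like cells. Those lower were Gzmc, Ltb (lymphotoxin beta, 0.0816), Serpina3g (0.262), Lyst (lysosomal trafficking, 0.306) and Ctsh (cathepsin H, 0.450). In effector-memory over naive CD8 T-like cells, 15 of 31 were higher, against 12.8% of all genes tested, and 0 lower, against 3.23%. They included Ifng at a ratio of 17.6 (12.8 to 24.8), Stx11 at 15.8, Serpinb6b at 9.15, Serpinb9 at 8.57, Tbx21 at 7.91, Rab27a (granule docking) at 3.12 and Cst7 (cystatin F, a cathepsin inhibitor in granules) at 2.83. Of the 15 genes, Ifng, Stx11, Tbx21, Prdm1 and Serpina3g passed the 20 CPM limit only through the effector-memory gate. Id2, another of the 15, was also a marker of that gate, so its call was fixed by the gating. Fas had a ratio of 0.946 (0.718 to 1.25), and Cflar, an inhibitor of death receptor signalling, one of 1.12 (0.911 to 1.37).

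The receptors for the ligands were low in lymphoid gates. Fas had 7.85 CPM in NK-like, 35.5 CPM in effector-memory and 37.6 CPM in naive CD8 T-like cells, and it was highest in neutrophil-like cells at 110 CPM and in the endothelial-like gate of the sinusoids at 107 CPM. Tnfrsf10b, the mouse death receptor for TRAIL, had at most 16.7 CPM in any gate, in gamma-delta T-like cells. The TRAIL decoy receptor gene Tnfrsf23 reached 101 CPM in neutrophil-like cells.

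**Figure D5:**
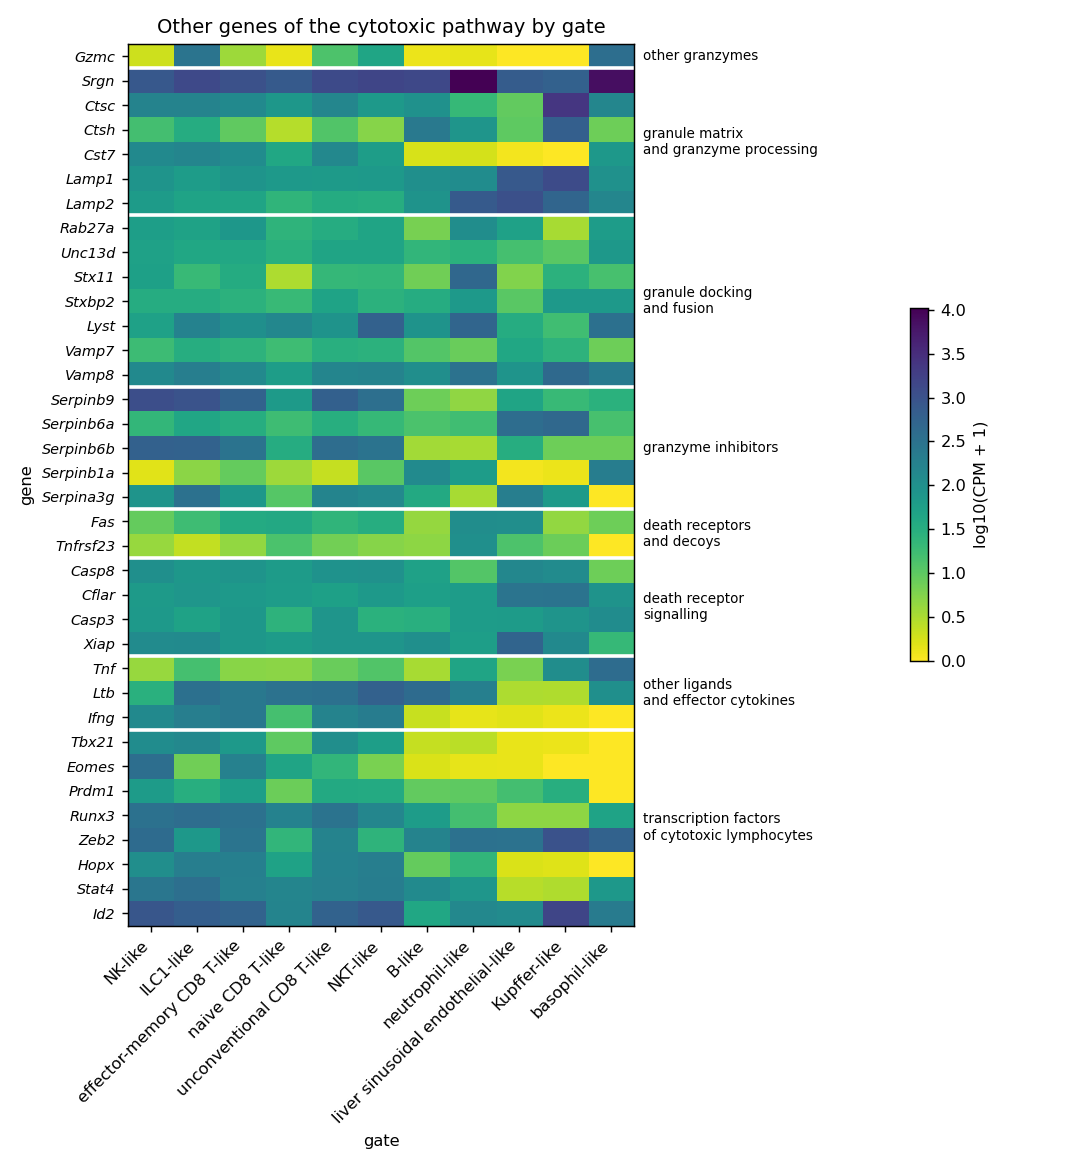
log10(CPM + 1) of the pathway genes with at least 20 CPM in a lymphoid gate (rows, grouped by role) in 11 gates (columns). Gzmc is dark in ILC1-like and basophil-like cells, Serpinb9 and Serpinb6b in the cytotoxic gates, and Srgn, Ctsc and the lysosomal genes also in myeloid cells.

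The genes most like each member over 21 gates were named by the Pearson correlation of log2(CPM + 1) among 9831 genes. The gates share 1 library and differ in depth, so these are descriptions. For Gzma they were Prf1 (r = 0.966), Baiap3 and Ccl5, and for Prf1 they were Gzma, Baiap3 and Ccl5. Gzmb was most like Sytl3 (r = 0.960), Cst7 and Sytl2, and Nkg7 most like Ctsw (r = 0.975), Ccl5 and Fasl. Fasl was most like Ccl5 (r = 0.966), Ifng and Klrc2. Gzmk was most like Serp2 (r = 0.877), Eomes and Klrg1, Gzmm like Sugt1 (r = 0.771), Eomes and Lcn4, and Tnfsf10 like Tpst2 (r = 0.897), Mxd4 and Cysltr2. Ccl5 and Eomes were gate markers. By Spearman rank correlation the most alike gene stayed the same only for Prf1 and Tnfsf10. For Gzmk, rho was 0.856 with Serp2, 0.821 with Eomes and 0.693 with Klrg1. For Gzmm it was 0.793 with Sugt1, 0.591 with Eomes and 0.758 with Lcn4.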

How the data were processed

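Liver immune cells were profiled with the 10x Genomics droplet system. The submitters' processing notes name mm10 with Seurat 2.3.4, STAR and Cell Ranger 2.1.1, whereas 3.0.0 is the software version per the file headers. The authors deposited raw UMI counts, as their whole-number values show. From them, UMI were summed per gate and scaled to CPM (Python 3.11.15, scanpy 1.11.5, scipy 1.17.1). A lineage gate needed at least 3 markers and 50% of its list; subset gates needed 2; cells of 2 lineages were set apart as mixed. These thresholds, the motifs and the splits by Klrg1, Cxcr6 and cycling were set after values were seen, and the members and lists were chosen with earlier results of these data known. Ratios carry exact conditional intervals; the interval code was checked on simulated data. Scrublet called 351 cells (3.39%) doublets, which were left in; 304 lay in the mixed gate. Named were all members, pathway genes with at least 20 CPM in a lymphoid gate, 3 most alike genes per member and gate markers; the pathway genes under 20 CPM and the receptors were named besides for their roles. Gene places follow GENCODE M21. Alternatives were stricter filters and gates, Leiden clusters, doublet removal, another CPM total, thinning and a mean over cells.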

Additional observations from a re-analysis of the deposited data

How the results depend on the processing

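No paired analysis was possible because both samples hold 1 matrix. Of the values recomputed under 8 alternatives, 190 stayed within their interval or count limit, 56 moved beyond it, and 0 ratios past their interval turned round. The counts of members past 2-fold did not move by over 1.5 times; the effector-memory over naive count was 7 in place of 8 with a CPM total without haemoglobin, hepatocyte, mitochondrial and ribosomal protein genes, where Gzmm had a ratio of 1.87. The largest shifts were in ratios over naive CD8 T-like cells, where Gzma ranged from 24.2 to 202, Gzmk from 24.3 to 116 and Tnfsf10 from 2.96 to 13.4. The NK-like over ILC1-like ratio of Tnfsf10 ranged from 0.0132 to 0.0578, and that of Fasl, from 0.808 to 1.06, crossed 1. Gzmk in effector-memory CD8 T-like cells ranged from 169 to 359 CPM and endothelial Tnfsf10 from 86.9 to 137 CPM. Gzmb was highest in basophil-like cells except with Leiden clusters and with stricter gates. With Leiden clusters ILC1-like cells had 2582 CPM and basophil-like cells 2246 CPM. With stricter gates unconventional CD8 T-like cells had 2571 CPM and basophil-like cells, by then under 30 cells, 2463 CPM. Low counts limit the values of Gzmm and of Tnfsf10 in NK-like cells. The causes were not tested.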

Other observations

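Cells that belong to no comparison also carried the genes. The 318 cells that passed no gate had 2852 Gzma CPM and contained Gzma in 37.4% of cells, with 321 Prf1 CPM. The 125 innate cells with the shared NK and ILC1 markers but no majority of either list had 8190 Gzma CPM, 1413 Gzmb CPM and 711 Prf1 CPM, with 80.7 Tnfsf10 CPM. Their Tnfsf10 level lay between the 7.85 CPM of NK-like and the 154 CPM of ILC1-like cells. Gzmc was at 152 CPM there, against 1.05 CPM in the NK-like gate and 293 CPM in the ILC1-like gate.

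The 1042 mixed cells carried markers of more than 1 lineage and were deep, with a median of 11454.5 UMI. They held 15003806 of the 64321006 UMI of all kept cells. Beside this share, they held from 8.26% (Nkg7) to 12.1% (Gzmm) of the UMI of 7 members and 29.5% of the Tnfsf10 UMI. Plasma-like cells contained Prf1 in 11.8% of cells (5.56 to 21.3%) and Tnfsf10 in 9.21%, against 0.926% and 0.686% of B-like cells, but at a median of 17047 UMI per cell, against 3239. Their levels were 9.38 Prf1 CPM and 7.82 Tnfsf10 CPM, against 3.08 and 2.12 CPM in B-like cells, and after thinning no plasma-like cell had a Prf1 UMI.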
